A study of Mus musculus with 2 samples.

Results

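The genes described here encode the subunits of the mouse proteasome, its activators and its assembly chaperones. Members were taken by name, as every gene on the array whose symbol reads Psma, Psmb, Psmc, Psmd, Psme, Psmf or Psmg followed by digits only, which gave 47 of 18194 genes. Each is represented by its brightest probe set (a group of short oligonucleotides on the array) among those that name a single gene. The series holds 2 Affymetrix Mouse 430 2.0 arrays, 1 of small intestine and 1 of colon, hybridised with RNA from biopsies of adult wild-type mice, with no treatment named in the labels. The methods of the study describe jejunum and distal colon of C57B6 mice for its sequencing, and whether this holds for the arrays, and whether animals were pooled, is not given. The tissue was not sorted, so that fewer cells of a type and less RNA per cell cannot be told apart. With 1 array per tissue there are no replicates, no test was run, and every difference is a description of these 2 arrays.

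The proteasome is the barrel-shaped protease that breaks down proteins marked with ubiquitin. Its 20S core is built of outer rings of alpha subunits and inner rings of beta subunits, and of the beta subunits only those encoded by Psmb5, Psmb6 and Psmb7 cut peptide bonds in the constitutive form. A 19S cap of ATPases and non-ATPase subunits recognises, unfolds and feeds in the substrate. In cells of the immune system, and in other cells under interferon gamma, the subunits encoded by Psmb8, Psmb9 and Psmb10 are built into new cores in place of those of Psmb5, Psmb6 and Psmb7, and the PA28 activator of Psme1 and Psme2 can cap the core. Immunoproteasomes are known for making peptides that suit MHC class I molecules, which epithelial cells and lymphocytes of the gut both carry.

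The promoter windows of Psmb8, Psmb9 and Psme1 are shown because these are the members of the immunoproteasome and of PA28 with a match to a motif searched. The windows come from RefSeq (assembly GRCm38.p6) and run from 250 bases before to 50 bases after the annotated start of the gene. That of Psmb8 is at chr17:34197945-34198244 on the plus strand, that of Psmb9 at chr17:34187281-34187580 on the minus strand and that of Psme1 at chr14:55578244-55578543 on the plus strand. Capitals mark matches, on either strand, to the interferon-stimulated response core GAAANNGAA, the gamma-activated site TTCNNNGAA, the antioxidant response element core TGACNNNGC, the CCAAT box CCAAT and the GC box GGGCGG, and in the windows shown no matches overlap.
Psmb8 window: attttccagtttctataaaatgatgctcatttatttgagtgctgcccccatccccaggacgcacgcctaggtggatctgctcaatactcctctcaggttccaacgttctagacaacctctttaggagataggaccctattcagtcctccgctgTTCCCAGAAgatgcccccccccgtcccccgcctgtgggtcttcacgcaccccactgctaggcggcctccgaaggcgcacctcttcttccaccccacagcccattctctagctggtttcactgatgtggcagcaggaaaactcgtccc
Psmb9 window: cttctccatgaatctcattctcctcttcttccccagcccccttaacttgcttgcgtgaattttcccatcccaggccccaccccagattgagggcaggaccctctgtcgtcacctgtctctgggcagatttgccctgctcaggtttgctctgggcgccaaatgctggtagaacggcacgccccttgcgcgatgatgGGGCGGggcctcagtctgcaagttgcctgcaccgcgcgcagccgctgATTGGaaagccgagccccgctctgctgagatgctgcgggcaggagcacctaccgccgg
Psme1 window: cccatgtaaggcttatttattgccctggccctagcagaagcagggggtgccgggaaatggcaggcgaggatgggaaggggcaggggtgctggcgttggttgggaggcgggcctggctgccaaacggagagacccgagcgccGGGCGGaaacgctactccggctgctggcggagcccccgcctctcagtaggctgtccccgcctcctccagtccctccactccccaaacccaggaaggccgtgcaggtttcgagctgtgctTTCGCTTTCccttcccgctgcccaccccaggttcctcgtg

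In these windows the match in Psmb8 was a gamma-activated site at -97 to -89 from the start, counted with -1 as the base before the start, and it reads as the motif on both strands. Psmb9 held a GC box at -55 to -50 and a CCAAT box, on the other strand, at -8 to -4. Psme1 held a GC box at -109 to -104 and, after its start, a response core on the other strand at 11 to 19. The window of Psmb10 held none of the motifs, and those of Psme2, which has 2 windows, held GC boxes and no other motif. A window was found for 40 of the 48 genes looked up, these being the members and Psme2, and none was used for Psma8, Psmb1, Psmb2, Psmb7, Psmc3, Psmd3, Psmd7 and Psmg2. Of the 6 windows of the immunoproteasome and PA28 genes, 1 (16.7%) held the response core and 1 (16.7%) the gamma-activated site. Over the other members, 6 of 37 windows (16.2%) held the response core and 2 (5.41%) the gamma-activated site, against 8.56% and 8.30% of all 32851 windows. Those with the response core were of Psmb3, Psmb4, Psmc2, Psmd4, Psmd9 and Psmg4, so this motif was not particular to the immunoproteasome and PA28 genes. The antioxidant response element core, which the transcription factor Nfe2l1 is known to bind in proteasome genes, was in 6 of the 37 windows (16.2%), those of Psmb5, Psmb6, Psmc6, Psmd9, Psmd12 and Psme4, and in 12.4% of all windows. GC boxes were in 20 of the 37 (54.1%) and in 35.7% of all, and CCAAT boxes in 13 (35.1%) and 37.4%. A match is a string of letters and does not show that a factor binds there.

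Most proteasome genes were read at similar levels in both tissues, and the 3 catalytic subunits of the immunoproteasome stood apart from them. Levels are log2 expression values, and 5 is the level at or below which a probe set was taken as background. Of the 47 members, 45 were above background, each of them on both arrays. The others were Psma8, known as a subunit of the testis, with 3.69 in small intestine and 2.91 in colon, and Psmb11, the subunit of the thymus, with 2.64 in small intestine and 2.61 in colon. By 3-fold or more, 3 members were higher in small intestine, and no member was higher in colon. This is 6.67% of the 45, while of the 11016 genes above background on at least 1 array, 5.71% were higher in small intestine and 5.49% in colon by that fold. The share of members was thus close to that of all genes, and the count alone does not set the proteasome apart. At 2-fold, 5 members (11.1%) were higher in small intestine and 2 (4.44%) in colon, against 11.5% and 13.4% of all genes. The median difference, small intestine minus colon, was 0.03 over the members and -0.06 over all genes above background. The median size of a difference was 0.36 for the members and 0.52 for all these genes, and 38 of the 45 members (84.4%) were within 2-fold, against 75.1% of all.

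**Figure D1:**
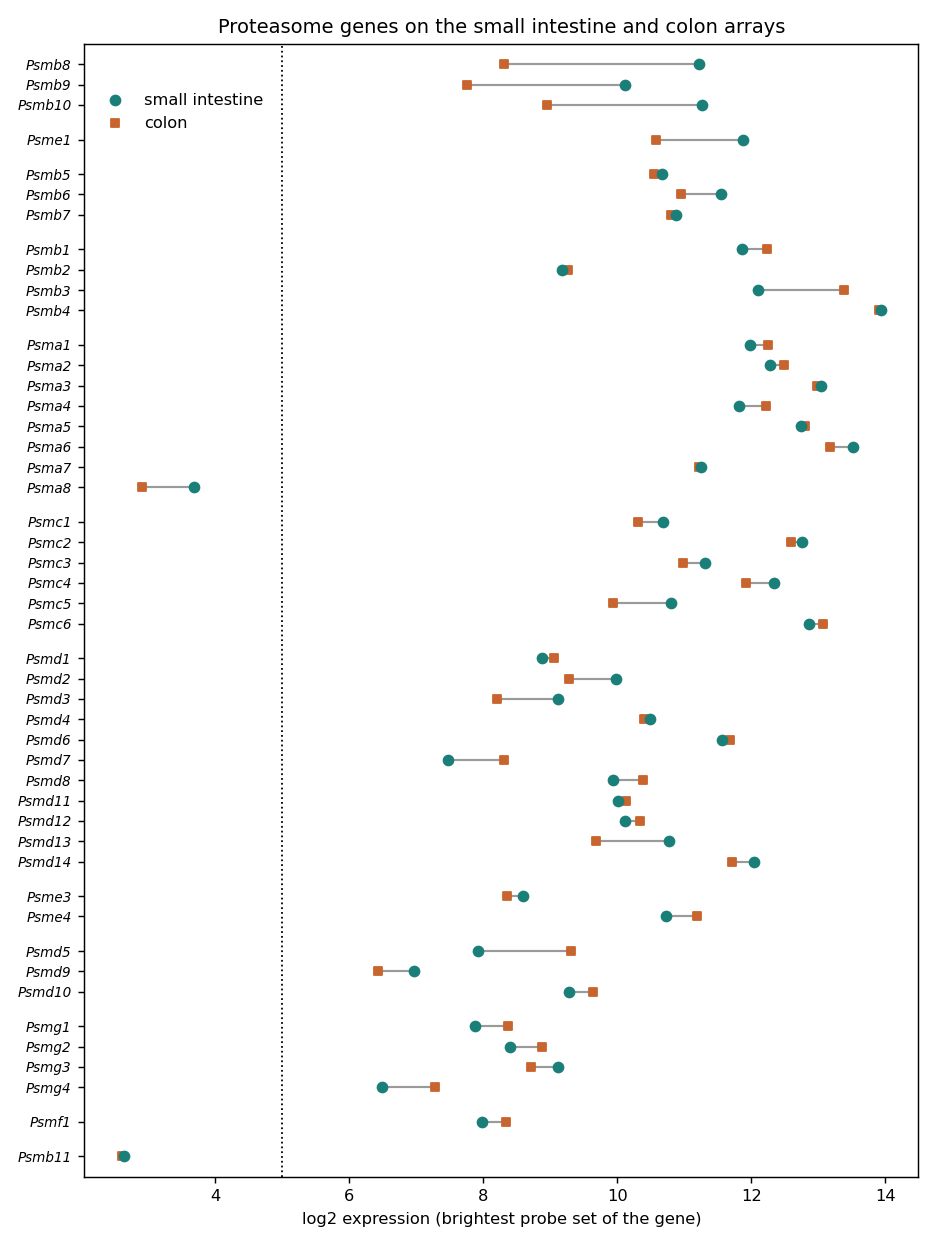
Log2 expression of the 47 members, grouped by role, with circles for small intestine, squares for colon (1 array each) and a dotted line at 5, the background level. The lines joining both arrays are long for Psmb8, Psmb9 and Psmb10 and short for most of the core and cap, while Psma8 and Psmb11 lie below 5 on both arrays.

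The immunoproteasome genes were the members with the 3 largest differences. Psmb8 (Entrez 16913), which replaces Psmb5 and cuts after hydrophobic residues, had 11.22 in small intestine and 8.31 in colon, a 7.55-fold difference. Psmb9 (Entrez 16912), the counterpart of Psmb6, had 10.11 in small intestine and 7.76 in colon (5.09-fold). Psmb10 (Entrez 19171), the counterpart of Psmb7, had 11.27 in small intestine and 8.95 in colon (4.99-fold). All 3 were well above background on both arrays, so none of these folds is a bound set by the background level. Ordered by difference among the 11016 genes, with the gene highest in small intestine first, Psmb8 was at place 205, Psmb9 at 300 and Psmb10 at 311.

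Of the PA28 activator, Psme1 (Entrez 19186), which encodes its alpha subunit, had 11.87 in small intestine and 10.58 in colon, or 2.44-fold, at place 894. The beta subunit Psme2 is not among the 47, since its probe set also names the related gene Psme2b. That shared probe set had 12.89 in small intestine and 11.92 in colon (1.96-fold), and how much of it comes from each gene is not known. Psme1 was thus on the same side as the catalytic subunits by a smaller fold. The median difference of Psmb8, Psmb9, Psmb10 and Psme1 was 2.33, and that of the other 41 members above background was -0.06. Of these 41, 20 were above 0 and 21 below, none reached 3-fold, and 38 were within 2-fold.

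Each immunoproteasome subunit was then set beside the constitutive subunit whose place it takes, by their differences between the tissues and not by their levels, which belong to different probe sets. Psmb5, the chymotrypsin-like subunit, had 10.67 in small intestine and 10.55 in colon (1.09-fold). Psmb6, the caspase-like subunit, had 11.55 in small intestine and 10.95 in colon (1.52-fold). Psmb7, the trypsin-like subunit, had 10.88 in small intestine and 10.80 in colon (1.06-fold). All 3 constitutive subunits were slightly higher in small intestine, so no pair went in opposite directions, and the pairs differed in size only. The difference of Psmb8 exceeded that of Psmb5 by 2.80 on the log2 scale, a ratio of folds of 6.95. That of Psmb10 exceeded that of Psmb7 by 2.24 (ratio 4.73), and that of Psmb9 exceeded that of Psmb6 by 1.75 (ratio 3.36).

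**Figure D2:**
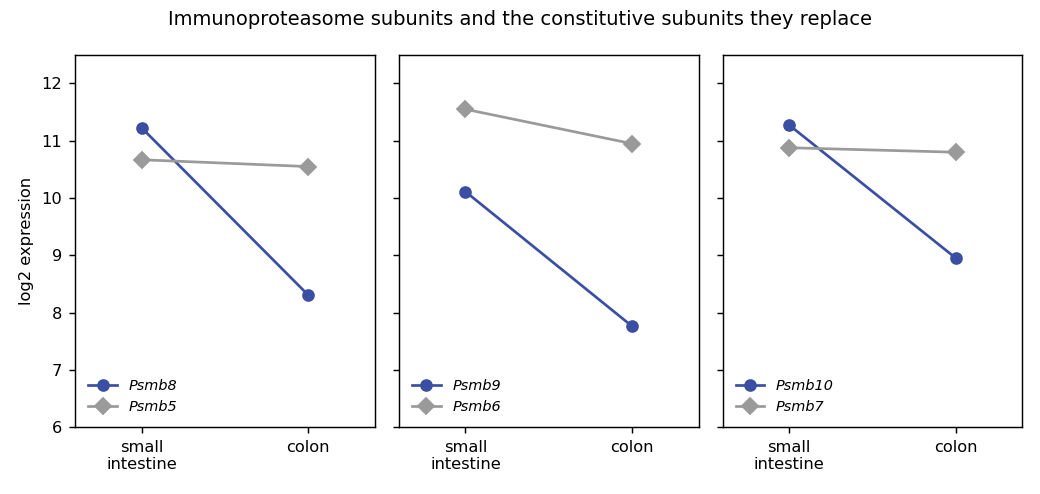
Log2 expression of an immunoproteasome subunit (circles) and its constitutive counterpart (diamonds) in small intestine (left in each panel) and colon (right), 1 point per array. The immunoproteasome lines of Psmb8, Psmb9 and Psmb10 slope by 2.92, 2.35 and 2.32 and those of Psmb5, Psmb6 and Psmb7 by 0.12, 0.60 and 0.08, while the heights of different genes are not comparable.

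The structural subunits of the core differed little, with 1 exception. The 7 alpha subunits above background, which form the outer rings and the gate, had differences from -0.41 to 0.35 with a median of -0.06. Psma4 was at the low end with 11.81 in small intestine and 12.22 in colon, and Psma6 at the high end with 13.53 in small intestine and 13.18 in colon. The direction of Psma6 hangs on the probe set used, since its other probe sets above background differed by -0.05 and -0.01. Psma1 had 11.99 in small intestine and 12.25 in colon. The alpha rings as a whole were thus within 1.33-fold. Of the beta subunits without a catalytic site, Psmb1 had 11.87 in small intestine and 12.23 in colon. Psmb2 had 9.18 in small intestine and 9.27 in colon, and Psmb4 had 13.93 in small intestine and 13.90 in colon. Psmb3 was the exception, with 12.11 in small intestine and 13.39 in colon, or 2.43-fold higher in colon. Its other probe set gave a difference of -0.11, so that the probe sets of Psmb3 shared the direction but not the size.

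In the 19S cap, 5 of the 6 ATPases, which unfold the substrate, were a little higher in small intestine, with a median difference of 0.35 and none at 2-fold. Psmc5 had 10.80 in small intestine and 9.94 in colon (1.81-fold). Psmc4 had 12.33 in small intestine and 11.92 in colon, and Psmc1 had 10.69 in small intestine and 10.31 in colon. Psmc6 was the ATPase on the other side, with 12.87 in small intestine and 13.07 in colon. Its other probe sets above background lay on the side of the small intestine, by 0.37 and 1.08, so that the direction of Psmc6 hangs on the probe set used. The same holds for Psmc2, with 0.17 for the probe set used and -0.13 for the other.

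The 11 non-ATPase subunits spread more widely, from -0.83 to 1.10, with 5 above 0 and 6 below and a median of -0.12. Psmd13, a subunit of the lid, had 10.78 in small intestine and 9.68 in colon (2.14-fold), and its second probe set above background differed by 0.90. Psmd3, also of the lid, had 9.11 in small intestine and 8.21 in colon (1.88-fold). Psmd7, which pairs with the deubiquitinase Psmd14, went the other way, with 7.47 in small intestine and 8.30 in colon (1.78-fold). Psmd14 itself had 12.04 in small intestine and 11.72 in colon (1.25-fold). Subunits of the lid, which sit in 1 particle, were therefore found on both sides of 0.

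By their brightest probe sets the other activators and the inhibitor were within 1.38-fold. Psme3, the nuclear PA28 gamma, had 8.59 in small intestine and 8.35 in colon. Its second probe set above background differed by more, with 7.66 in small intestine and 6.85 in colon (1.76-fold). Psme4, which encodes PA200, had 10.73 in small intestine and 11.19 in colon, and the 3 of its 6 probe sets above background were all lower in small intestine. One of them was below background in small intestine (4.09 in small intestine and 6.15 in colon), which is at least 2.23-fold higher in colon. Psmf1, known as the inhibitor PI31, had 7.99 in small intestine and 8.33 in colon, with probe sets on both sides of 0.

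Among the chaperones that build the 19S base, Psmd5 was the member most shifted to colon, with 7.92 in small intestine and 9.31 in colon (2.63-fold). Psmd9 had 6.97 in small intestine and 6.43 in colon, and Psmd10 had 9.28 in small intestine and 9.64 in colon, so that these chaperones did not move together. Of the 4 chaperones of the 20S core, 3 were lower in small intestine, and none reached 2-fold. Psmg4 had 6.48 in small intestine and 7.28 in colon, Psmg1 had 7.88 in small intestine and 8.37 in colon, and Psmg2 had 8.40 in small intestine and 8.88 in colon. The second probe set of Psmg2 above background differed by 0.03, so that its place among the 3 hangs on the probe set used. Psmg3 was the one on the other side, with a difference of 0.41.

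**Figure D3:**
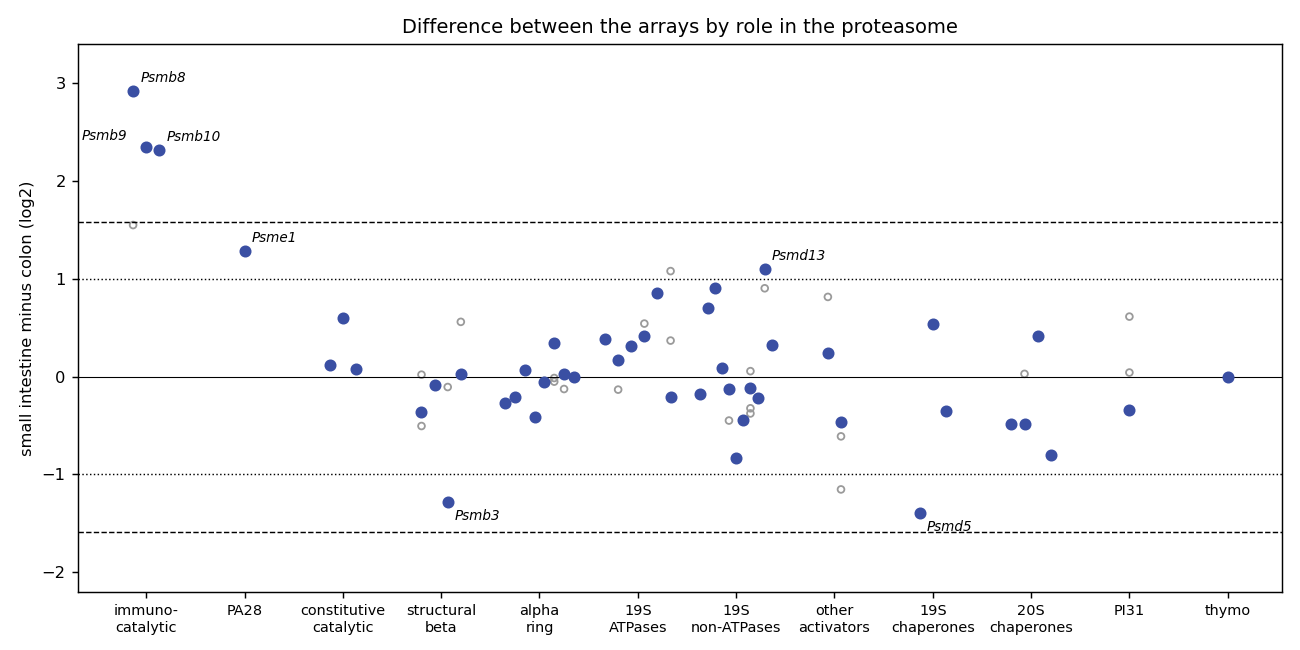
Difference between the arrays (small intestine minus colon, log2) for each member, grouped by role, with filled points for the brightest probe sets, open points for other probe sets of the same gene above background, dashed lines at 3-fold and dotted lines at 2-fold. Psmb8, Psmb9 and Psmb10 are the filled points beyond the dashed line on the small intestine side, and no filled point lies beyond the one on the colon side (Psma8 and Psmb11, at background, are drawn at 0).

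Several members had more than 1 probe set, which gives a measure of technical spread in place of replicates. Of 100 probe sets for the 47 members, 70 were above background, and 18 members had several of these. In 10 of the 18 all such probe sets had the same direction. Psmb8 was among them, as its second probe set had 6.55 in small intestine and lay below background in colon at 4.38, which is at least 2.93-fold. Psmb9, Psmb10, Psme1 and Psmd5 had 1 probe set each, so this check cannot be made for them. Over all genes with several probe sets above background on both arrays, differences of probe sets of 1 gene had a pooled SD of 0.54 (8792 probe sets of 3535 genes). Probe sets below background on either array, such as the second of Psmb8, are not in this SD. The differences of Psmb8, Psmb9 and Psmb10 lay well above this SD. The SD covers disagreement between probe sets and neither the spread between mice nor that between arrays.

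The immunoproteasome genes of the MHC lie among other genes that were higher in small intestine. In the RefSeq gene order (GRCm38.p6), Psmb9, Tap1, Psmb8 and Tap2 follow each other on chromosome 17, and class II genes flank them. Of the 6 measured genes that are not members within 3 protein-coding genes of Psmb8 or Psmb9, all were at least 2.73-fold higher in small intestine and 4 passed 3-fold. Over all genes above background, 5.71% passed 3-fold on that side. Tap1, a subunit of the transporter that carries peptides into the endoplasmic reticulum, had 8.35 in small intestine and 5.75 in colon (6.05-fold). Tap2, the other subunit of this transporter, had 6.53 in small intestine and 4.79 in colon, where it was below background (at least 2.89-fold). Psmb8 and Psmb9 were thus inside a stretch of genes with the same direction.

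Psmb10, on chromosome 8, had no such neighbours, since 4 of the 6 genes nearest to it were at background on both arrays and Pskh1, a kinase gene, had 5.57 in small intestine and 6.37 in colon. The gene next to it, Ctrl, a pancreatic protease, went the other way, with 4.49 in small intestine and 12.79 in colon (at least 222-fold higher in colon). Ctrl is also among the exocrine pancreas markers given below, of which all 9 measured were past 3-fold in colon. Around Psme1 and Psme2 on chromosome 14, the 7 other genes had differences from 0 to 0.83. Among them Irf9, a subunit of an interferon-activated transcription factor, had 7.34 in small intestine and 6.64 in colon. The difference of Psmb10 was therefore not shared by the genes around it, and Psme1 differed by more than each of its measured neighbours.

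Genes that work with the proteasome did not follow the immunoproteasome as a group. Of 13 measured partners, none reached 3-fold and 2 were at least 2-fold higher in small intestine, with a median of -0.11. Among all genes above background, 5.71% reached 3-fold and 11.5% reached 2-fold on that side, so the counts of these 13 do not set them apart. Rad23b, a shuttle for ubiquitinated proteins, had 10.82 in small intestine and 9.31 in colon (2.84-fold). Txnl1, a redox protein bound to the cap, had 13.56 in small intestine and 12.46 in colon (2.15-fold), and its probe sets did not all show this direction. Sem1, the smallest subunit of the lid, had 13.36 in small intestine and 14.09 in colon, and Nfe2l2, a stress-response factor, had 11.28 in small intestine and 12.00 in colon, both 1.66-fold higher in colon. Pomp, the chaperone needed to mature new cores, had 12.58 in small intestine and 12.32 in colon. Nfe2l1, which is known to raise proteasome genes when proteolysis fails, had 8.01 in small intestine and 8.12 in colon, so that both of these general partners were close to even.

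Genes of MHC class I loading, which take up the peptides that proteasomes make, leaned to the small intestine. Over all genes above background, 5.71% were past 3-fold and 11.5% past 2-fold in small intestine, and 13.4% past 2-fold in colon. Of the 12 loading genes, 2 were past 3-fold and 5 past 2-fold in small intestine, none was past 2-fold in colon, and the median difference was 0.64. Besides the transporter genes these were Nlrc5, an activator of class I genes, with 6.94 in small intestine and 4.75 in colon (at least 3.84-fold), and Tapbpl, which edits bound peptides (2.77-fold). The fifth was the light chain gene B2m, with 14.09 in small intestine and 12.65 in colon (2.71-fold). The class I heavy chain H2-K1 did not share this, with 12.77 in small intestine and 12.90 in colon. The other heavy chain of the list, H2-D1, leaned to the small intestine, with 12.82 in small intestine and 12.00 in colon (1.76-fold). For both heavy chains the brightest probe set, of 4 for H2-K1 and 9 for H2-D1, is marked _x and can match several genes. How much of either value comes from each heavy chain is thus not known. Of 12 measured genes of interferon gamma signalling, Gbp3, a GTPase induced by interferon, passed 3-fold (4.56-fold) and Irf8, a factor of myeloid and B cells, 2-fold (2.74-fold) in small intestine. None passed 2-fold in colon, the median was 0.21, and Jak2, a kinase at the receptor, and Gbp2 followed with 0.92 and 0.85. Jak1, another kinase at that receptor, and the receptor gene Ifngr1 were on the other side, with differences of -0.72 and -0.52. Irf1, which is known to drive Psmb9, had 9.88 in small intestine and 9.48 in colon. Ifng itself was below background on both arrays, with 4.02 in small intestine and 3.16 in colon.

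Markers of lymphocytes, which carry immunoproteasomes without induction, moved in the same direction as Psmb8, Psmb9 and Psmb10. Of 13 measured markers, 9 were past 3-fold on the side of the small intestine, as were 5.71% of all genes above background. None was past 2-fold on the side of the colon (13.4% of all genes), and the median difference of the markers was 1.93. Summed over the markers, the level (log2 of the summed linear values) was 13.56 in small intestine and 10.20 in colon. Single markers ran between 4.69 and 12.63 in small intestine and between 3.87 and 8.76 in colon, with Cd2 at background on both arrays. The granzyme gene Gzma, of cytotoxic lymphocytes, had a 24.6-fold difference, followed by the chemokine gene Ccl5 (23.3-fold), the granzyme gene Gzmb (13.0-fold) and Itgae, the integrin of lymphocytes in the epithelium, with 9.12 in small intestine and 5.83 in colon (9.81-fold). Of 8 myeloid markers, Aif1 passed 3-fold in small intestine and Cd14 in colon, Itgam was at background on both, and the sum was 12.42 in small intestine and 12.05 in colon. The 8 epithelial markers were all above background on both arrays, with a sum of 16.92 in small intestine and 16.57 in colon. Of these, Vil1 passed 3-fold in small intestine (3.02-fold) and none passed 2-fold in colon, where Krt19 was the most shifted (-0.66). Their median difference was 0.30. The part of lymphocytes or other cells in the differences of the proteasome genes was not tested.

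The labels were checked against defining genes of each tissue. The 5 genes of the small intestine, among them lactase (Lct), which had 13.34 in small intestine and 3.05 in colon, were all past 2-fold on the side of the small intestine. Fabp2 differed least of the 5 and was bright on both arrays, with 15.42 in small intestine and 14.26 in colon (2.24-fold). Of 5 genes of the colon, 4 were past 3-fold on the side of the colon, among them carbonic anhydrase Car1 with 2.86 in small intestine and 15.49 in colon, and Hoxa13 was at background on both arrays. On the colon array, markers of smooth muscle were higher by their sum (13.02 in small intestine and 14.45 in colon). Of the 8, 5 were past 3-fold and 6 past 2-fold in colon, against 5.49% and 13.4% of all genes above background. Des differed by -0.76, and Lmod1 went the other way, with 6.11 in small intestine and 5.40 in colon (1.63-fold). Markers of the exocrine pancreas, which neither tissue should hold, were also higher on the colon array (sum of 8.61 in small intestine and 15.56 in colon, all 9 past 3-fold). The part of muscle or pancreas in the difference of Psmb8, Psmb9, Psmb10 or any other member was not tested.

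**Figure D4:**
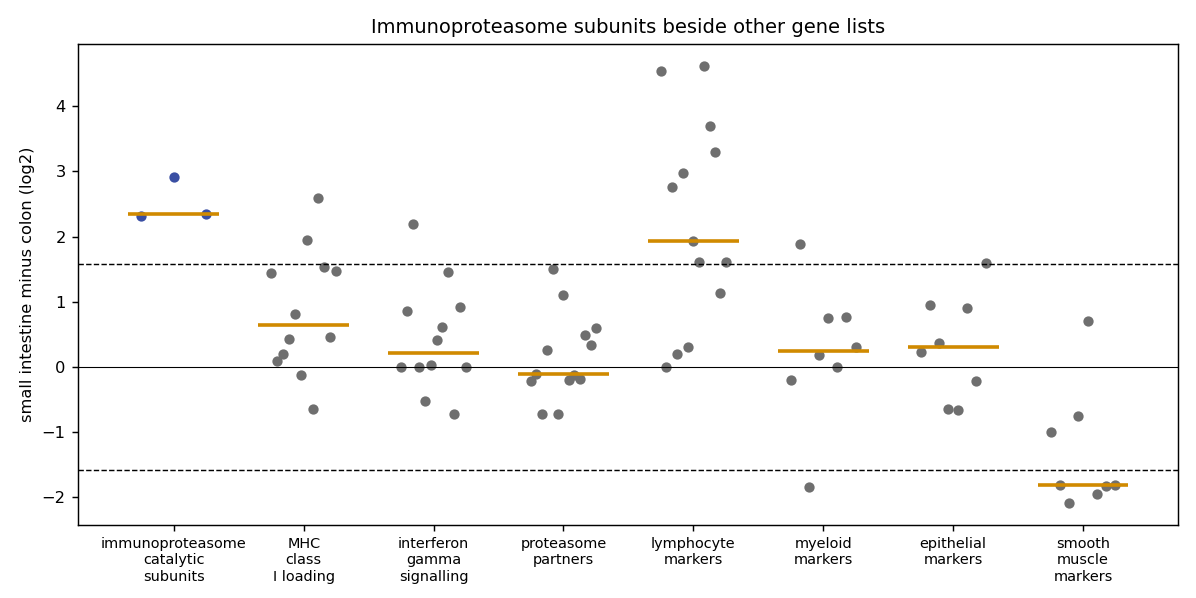
Difference between the arrays (small intestine minus colon, log2) of the genes of 8 lists, 1 point per gene, with list medians as orange bars and 3-fold as dashed lines. The median of the immunoproteasome subunits is 2.35 and that of the lymphocyte markers 1.93, while proteasome partners lie around 0 with a median of -0.11 and 5 of the 8 smooth muscle markers lie beyond the line on the colon side.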

How the data were processed

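The authors hybridised biotin-labelled total RNA of each tissue to 1 Mouse 430 2.0 array (Affymetrix) and deposited log2 expression values per probe set. The processing notes name GCRMA and the methods of the study name RMA, and versions are not given in the sources used here. Of the 2, GCRMA pulls dim values down, which can enlarge folds of dim genes. All 45101 deposited probe sets were used on their own scale.

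Gene names came from the platform annotation, in which 34958 probe sets named 1 gene. The 932 that named several were left out. All 47 members matched RefSeq (GRCm38.p6) by Entrez identifier. Values below 5 were raised to 5 before differences were taken, so a gene below 5 on both arrays counts as 0 in a list median and a fold against a tissue below 5 is a lower bound. Calls were made at 3-fold and at 2-fold. The study used 3-fold on its sequencing values, with 1 added to the value of the second tissue, which was not done here. Promoter windows were searched on both strands. The procedure was tested on simulated arrays with known folds. Their noise was set by hand and only genes bright in colon were changed, so that test does not measure the precision of these arrays. The members, lists and comparisons were chosen with earlier results of these data known, and the tissue marker lists were added last. By rule both levels are given for the immunoproteasome genes, their counterparts, every member past 2-fold and up to 3 members of each role with the largest differences, and of each other list up to 4 genes with the largest differences are named. Psmb4, Psmc2, Psmc6, Psmd14, Psmg3, Pomp, Nfe2l1, B2m, H2-K1, H2-D1, Ifng, Ifngr1, Jak1, Irf1, Cd2, Des, Lmod1, Fabp2 and the neighbouring genes were named after their values were seen. The alternatives covered the background level, the scaling and the choice of probe set. Python 3.11.15, numpy 2.4.6, pandas 2.3.3 and matplotlib 3.10.9 were used.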

Additional observations from a re-analysis of the deposited data

How the results depend on the processing

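Psmb8, Psmb9 and Psmb10 stayed past 3-fold under each of the 9 alternatives in which they had a value, and no member reached 3-fold in colon under any of the 9. These were background levels of 4 and 6, no floor on low values, quantile normalization, centring on the median of all probe sets, centring on spike-in controls, the median over probe sets, leaving out probe sets marked _x, _s or _a (which can match several transcripts or genes), and, chosen after seeing the data, the shared probe set for Psme2. Over these Psmb8 ran from 2.54 to 3.20, Psmb9 from 2.35 to 2.63 and Psmb10 from 2.32 to 2.61. Without the marked probe sets 6 members, among them Psmb5 and Psmb8, had no value, so that 2 members were past 3-fold and 3 in place of 5 past 2-fold in small intestine. The number of members at least 2-fold higher in colon was 1 in place of 2 with centring on spike-ins, with the median over probe sets and without the marked probe sets, as Psmb3 fell under 2-fold (differences of -0.99, -0.69 and -0.11). Psmd13 had 0.61 with the median over probe sets and 0 without the marked ones. With the median over probe sets Psmc6 took its place past 2-fold in small intestine, at 1.08 against -0.20 as reported. Centring on spike-ins moved the median of all genes by 0.27, gave 7 members past 2-fold in small intestine (with Psmc5 and Psmd3) and put the median of the members outside the immunoproteasome and PA28 at 0.23, above 0. The spike-ins were uneven, since both of BioC differed by -1.39 and -1.41 between the arrays and the other 7 by -0.08 to 0.32. The median of all members was -0.01 without the marked probe sets. The difference of Psma6 was -0.03 with the median over probe sets and -0.05 without the marked ones, that of Psmg2 was 0.03 without the marked ones, that of Psmf1 was 0.33 and 0.61 under these settings, and with centring on spike-ins Psma1 had 0.02 and Psmb2 0.20, each on the other side of 0 from the value reported. These are not all the members that changed side, as Psmc2, reported at 0.17, had -0.13 without the marked probe sets. The number of arrays, 1 per tissue, limits the precision of every value. No paired analysis was possible because each tissue has 1 array.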
